A study of Mus musculus with 2 samples.

Results

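Transcripts of 7 mouse genes tied to selenium were followed through liver cells measured by droplet single-cell RNA sequencing. Selenbp1 and Selenbp2 encode selenium binding proteins, and Selenop, Gpx1, Gpx4, Txnrd1 and Dio1 encode selenoproteins. They were chosen by symbol, and all 7 were found among the 32285 genes of the deposited matrix. The choice was made with earlier values of these data in view, among them the levels of Selenbp2 and Selenbp1 in hepatocytes, so the levels below are descriptions and carry no test. The labels name 2 samples, a Cebp KO liver and a Cebp WT liver, both from mice given HFCFD, which is high in fat, cholesterol and fructose (40% in the labels), for 2 weeks. In the study's mice the Cebpa fl/fl allele was removed in hepatocytes by an albumin-driven Cre on a C57BL/6N background, so other liver cells of a knockout keep the gene, and the controls of that cross are Cebpa fl/fl mice without Cre. The sources used here do not give the age of these animals. Cells came from perfused, digested livers after Percoll centrifugation, with 1 capture lane for each sample. Both libraries sit in 1 matrix, in which a barcode ends in suffix 1 or suffix 2. No label ties a suffix to a genotype, so the libraries are named by suffix, and no genotype was read from their values.

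Selenoproteins carry selenocysteine, an amino acid that the ribosome inserts at a TGA codon that would otherwise end the protein. Insertion needs a hairpin in the transcript's tail and a dedicated set of factors, and the liver is the organ that packs dietary selenium into selenoprotein P, the product of Selenop, and secretes it into blood. Gpx1 and Gpx4 are glutathione peroxidases, of which the product of Gpx4 reduces lipid hydroperoxides in membranes. Txnrd1 encodes the cytosolic thioredoxin reductase, and Dio1 the deiodinase that converts thyroxine into active thyroid hormone. Selenium binding proteins are different in kind. They bind selenium without carrying selenocysteine, the product of Selenbp1 is a methanethiol oxidase, and Selenbp2 is a close copy of it in the mouse that is known as an acetaminophen-binding protein of liver.

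The coding sequences show this difference directly. In the GENCODE transcripts on GRCm38, Selenop held 10 in-frame TGA codons among 381 codons. Gpx1 held 1 at codon 47 of 202, Gpx4 1 at codon 73 of 198, Txnrd1 1 at codon 498 of 500 and Dio1 1 at codon 126 of 258. Neither Selenbp1 nor Selenbp2 held any in-frame TGA before the stop of their 473 codons. The codons that set the 5 selenoproteins apart are printed with 12 bases on each side, 5′ to 3′ on the transcript, with TGA in capitals, and for Selenop the first of its 10 codons is given.
Selenop, codon 59: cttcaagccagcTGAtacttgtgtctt
Gpx1, codon 47: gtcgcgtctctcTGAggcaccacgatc
Gpx4, codon 73: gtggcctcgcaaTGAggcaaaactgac
Txnrd1, codon 498: cagtctggctgcTGAggttaagcccca
Dio1, codon 126: ggcagttgcaccTGAccttcatttctt
The Txnrd1 codon lies next to the end of the protein, whereas those of both peroxidases and of Dio1 lie inside it, and in each of these enzymes selenocysteine takes part in catalysis.

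On GRCm38 (mm10, the build in the submitters' processing notes) the paralogs lie on the plus strand of 1 chromosome, Selenbp2 at chr3:94693556-94704413 and Selenbp1 at chr3:94933056-94944758, with 228642 bases between them. Selenop lies at chr15:3268547-3280508, where Ccdc152 overlaps it on the opposite strand. Gpx1 lies at chr9:108338903-108340343 and Gpx4 at chr10:80047166-80056439. Txnrd1 lies at chr10:82833951-82897712, where Gm38560 and Gm47073 overlap on the opposite strand and Eid3 on the same strand, so some of its reads could belong to Eid3. Dio1 lies at chr4:107291465-107307169 on the minus strand. All 7 are protein-coding genes in GENCODE M21.

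The libraries differed before any gene was examined. The suffix 1 library held 17313 barcodes and 60048646 UMIs (unique molecular identifiers, each marking 1 captured molecule), and the suffix 2 library 15003 barcodes and 52355243 UMIs. The median share of mitochondrial UMIs was 4.07% and 41.3%, and a limit of 25% removed 5681 barcodes (32.8%) and 8913 barcodes (59.4%). After filtering 11617 and 6088 cells remained, of which 9290 (80.0%) and 3081 (50.6%) fell into clusters named hepatocyte-like from 8 markers. Of the 12 hepatocyte-like clusters, 11 drew more than 90% of their cells from 1 library and held 12354 of the 12371 cells, so a hepatocyte-like cluster here may mark a library and not a kind of cell. The summed level of the 8 hepatocyte markers was 77218 and 89950 UMIs per 1000000 UMIs (CPM) in hepatocyte-like cells, against 23835 and 30201 CPM in B-like and T-like cells pooled, which should make none of these transcripts. Cebpa itself, the targeted gene, stood at 0.974 CPM (27 UMIs) in hepatocyte-like cells of suffix 1 and 102 CPM (1332 UMIs) in those of suffix 2, and at 139 and 170 CPM in Kupffer or macrophage-like cells. There are no replicates, so intervals below are 95% counting intervals only. They do not cover differences between animals or preparations. Barcode sequences shared by the libraries numbered 81, of which 34 were among the kept cells.

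Hepatocyte transcripts were present in every class, so the share that free RNA brings into a droplet has to stand beside each level. Hepatocyte-like cells under 5000 UMIs carried 43.8 and 64.0 Alb UMIs each (suffix 1 and suffix 2), about what B-like cells carried (53.9 and 60.1), whereas the 687 and 579 hepatocyte-like cells of at least 5000 UMIs carried 834 and 595. Alb encodes albumin, the main secreted protein of hepatocytes. Values are therefore given for all hepatocyte-like cells and for these deep cells, whose median depth was 23410 and 12596 UMIs.

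Counted over the summed UMIs of hepatocyte-like cells, to which deep cells contribute most, Selenop was the most abundant of the 7 transcripts in both libraries, followed by Gpx1. Since each molecule is tagged once at its 3′ end, CPM counts molecules and was not divided by length. Selenop stood at 4040 CPM in suffix 1 and 3247 CPM in suffix 2, and Gpx1 at 2866 and 2473 CPM. In suffix 1 the order went on with Selenbp2 at 1101 CPM, Gpx4 at 610 CPM, Selenbp1 at 149 CPM, Txnrd1 at 101 CPM and Dio1 at 74.0 CPM. In suffix 2 Gpx4 came before Selenbp2, with 527 against 147 CPM, and Selenbp1 at 132 CPM, Txnrd1 at 71.2 CPM and Dio1 at 35.1 CPM followed. The order was thus the same apart from Selenbp2, which took the 3rd place in suffix 1 and the 4th in suffix 2. Gpx1 came before Selenop in suffix 1 with a mitochondrial limit of 10% (3014 against 2548 CPM), with the marker gate (2935 against 2628 CPM) and as means over cells (2968 against 2668 CPM). In cells under 5000 UMIs it did so in both libraries, with 3202 and 2616 against 2299 and 2385 CPM, but there Selenop was near the level of B-like and T-like cells, with 3.24 and 4.34 against 3.69 and 3.72 UMIs per cell. In deep cells of suffix 1 Dio1 (89.6 CPM) came before Txnrd1 (82.6 CPM). The same held in suffix 1 with a mitochondrial limit of 50% (75.8 against 75.6 CPM). It also held there with the haemoglobin list kept in the cluster naming (84.9 against 83.5 CPM). Subtracting the mean profile of B-like and T-like cells as free RNA moved several levels by more than 1.5 times, among them Selenop to 8054 and 5095 CPM and Txnrd1 to 54.6 and 37.0 CPM, and put Dio1 before Txnrd1 in both libraries, with 141 and 38.6 CPM. All neighbours in both summed orders had counting intervals that did not overlap, the closest pair being Selenbp2 (140 to 153 CPM) and Selenbp1 (126 to 138 CPM) in suffix 2.

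**Figure D1:**
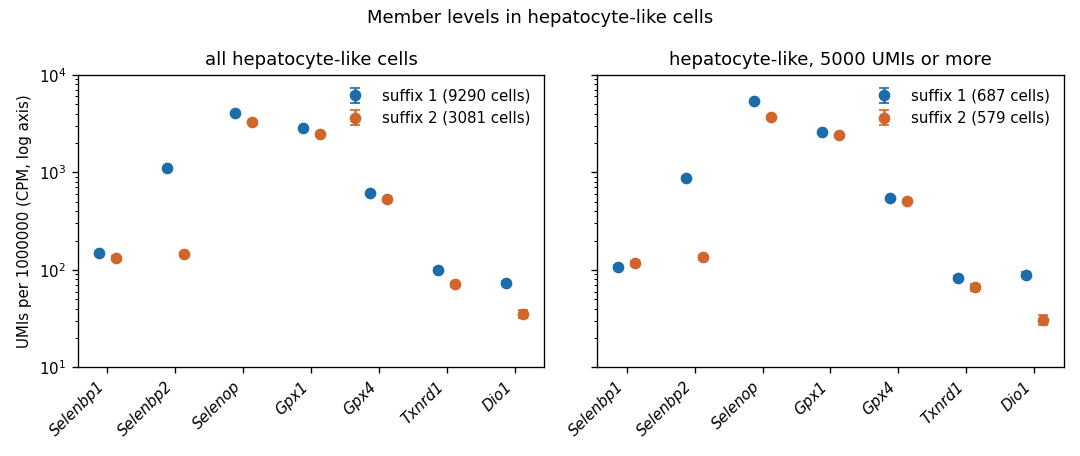
Level of each of the 7 genes in UMIs per 1000000 UMIs (log axis) in all hepatocyte-like cells and in those of at least 5000 UMIs, by library; bars are 95% Poisson counting intervals, mostly smaller than the points. Selenbp2 is the gene with the widest gap, 1101 against 147 CPM in all cells and 872 against 135 CPM in deep cells, and Dio1 the next.

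Selenbp2 differed between the libraries and Selenbp1 hardly did. In hepatocyte-like cells Selenbp2 was 7.51-fold higher in suffix 1 (interval 7.17 to 7.87, log2 ratio 2.91), from 30503 UMIs against 1914. Selenbp1 was 1.13-fold higher (1.07 to 1.19), from 4122 UMIs against 1724. In deep cells Selenbp2 stood at 872 and 135 CPM, a 6.46-fold difference (6.08 to 6.86), while Selenbp1 stood at 108 and 117 CPM, a ratio of 0.921 (0.851 to 0.997) in the other direction. The gap in Selenbp2 was therefore present at both depths, and the direction for Selenbp1 depended on depth.

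Set against all genes, 2 of the 7 members, Selenbp2 and Dio1, lay at least 2-fold apart between the libraries, where 4.28% of 6745 genes of at least 10 CPM did so in either direction 1.78% did so with suffix 1 higher and 2.51% with suffix 2 higher. In deep cells the same 2 members did so, against 4.58% of 6988 genes in either direction and 2.12% with suffix 1 higher. All 7 members were higher in suffix 1 when all hepatocyte-like cells were counted, with a median log2 ratio of 0.32 against 0.00 over all genes (0.00375 before rounding), but since the members were picked with these values in view, nothing is read from that count. Among the 6745 genes Selenbp2 ranked 14th by its ratio of suffix 1 to suffix 2 and 42nd by the size of its log2 ratio in either direction. Dio1 ranked 104th and 253rd.

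Among hepatocyte-like cells, the proportion of the paralogs differed more between the libraries than within either. Hepatocyte-like cells held 740 Selenbp2 UMIs per 100 Selenbp1 UMIs in suffix 1 (716 to 765) and 111 in suffix 2 (104 to 119), while deep cells held 810 (770 to 853) and 115 (106 to 126) and cells under 5000 UMIs 692 (663 to 722) and 105 (94.7 to 116). Within suffix 1 deep and shallow cells thus lay apart by their counting intervals. Across the 6 hepatocyte-like clusters with at least 20 cells of suffix 1 the proportion ran from 643 to 835, and across the 6 with at least 20 cells of suffix 2 from 66.7 to 137, the lowest of these resting on 6 Selenbp1 and 4 Selenbp2 UMIs. Over these clusters the ranges of the libraries did not overlap. A gate on hepatocyte markers in each cell, used in place of clusters, took 6966 and 2889 cells and gave 709 and 108. Within 10% of its limit, counting both sides, lay 517 and 182 cells.

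The difference was spread over the cells and did not rest on a few. When deep cells were thinned to 5000 UMIs each, the median cell of suffix 1 held 4 Selenbp2 UMIs, with 2 at the lower and 7 at the upper quartile, and the median cell of suffix 2 held 0, with 0 and 1 at the quartiles. At least 1 Selenbp2 UMI was seen in 95.3% of the 687 cells and in 44.4% of the 579 cells. For Selenbp1 these shares were 44.8% and 42.5%, and the mean was 0.683 and 0.618 UMIs. The distributions of Selenbp1 lay almost on each other, whereas those of Selenbp2 were separated over most of their range. Thinned to 1000 UMIs, 70.9% and 15.8% of hepatocyte-like cells held a Selenbp2 UMI (76.4% and 33.0% before thinning, with 3221 and 523 shallower cells left out). B-like cells, which should lack the transcript, gave 28.9% and 2.4% at the same depth, from median depths of 3467 and 3033 UMIs before thinning against 1196 and 1824 in hepatocyte-like cells. Thinning to an equal total also dilutes free RNA among a B-like cell's own transcripts, so these shares do not separate expression from free RNA. Before thinning B-like cells held 1.79 and 0.195 Selenbp2 UMIs each, against 1.97 and 0.306 in hepatocyte-like cells under 5000 UMIs and 19.8 and 1.98 in deep ones. Per 1000 Alb UMIs Selenbp2 stood at 33.2 and 3.25 in B-like cells and at 23.9 and 2.30 in B-like and T-like cells pooled. Hepatocyte-like cells gave 32.1 and 3.79, with 44.9 and 4.78 under 5000 UMIs and 23.7 and 3.34 in deep cells.

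**Figure D2:**
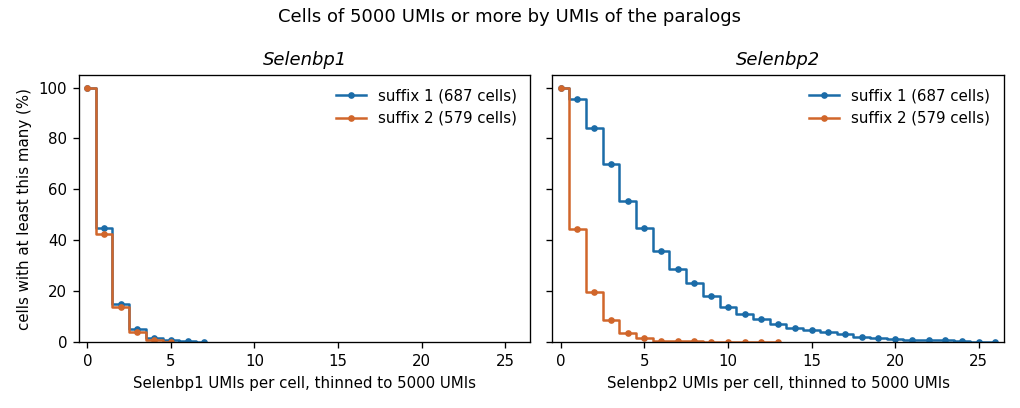
Share of hepatocyte-like cells of at least 5000 UMIs (vertical axis, percent) that hold at least the given number of Selenbp1 or Selenbp2 UMIs (horizontal axis) after each cell was thinned to 5000 UMIs. The curves of the 687 cells of suffix 1 and the 579 cells of suffix 2 overlie each other for Selenbp1 and lie apart for Selenbp2, where 95.3% and 44.4% of cells hold at least 1 UMI.

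The proportion of the paralogs outside hepatocytes followed the library. In B-like and T-like cells together it was 857 (698 to 1062) in suffix 1 and 121 (88.3 to 166) in suffix 2, from 883 and 93 Selenbp2 UMIs. Kupffer or macrophage-like cells gave 740 and 89.0, endothelial-like cells 736 and 144, and erythroid-like cells 818 and 117. Each of these intervals held the value of hepatocyte-like cells from its own library. The B-like and T-like cells of suffix 1 held 1.24 Selenbp2 UMIs each, those of suffix 2 held 0.135, and hepatocyte-like cells under 5000 UMIs held 1.97 and 0.306. The levels of these classes lay at or below those of shallow hepatocyte-like barcodes from the same library, so expression of their own could not be told apart from free RNA.

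Cholangiocyte-like cells, which line the bile ducts, did not share that proportion. They gave 209 (135 to 330) in suffix 1 and 44.0 (19.5 to 92.7) in suffix 2, both below the interval of hepatocyte-like cells. Per cell they held 0.842 and 1.04 Selenbp1 UMIs, against 0.144 and 0.112 in B-like and T-like cells, while their 1.76 and 0.458 Selenbp2 UMIs per cell rested on 67 and 11 UMIs. With 38 and 24 cells the class was small, but Selenbp1 stood above the level of B-like and T-like cells in both libraries. Alb stood at 113 and 69.4 UMIs per cell there, above the 51.8 and 58.7 of B-like and T-like cells, and whether hepatocyte transcripts in doublets add to these counts was not tested.

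**Figure D3:**
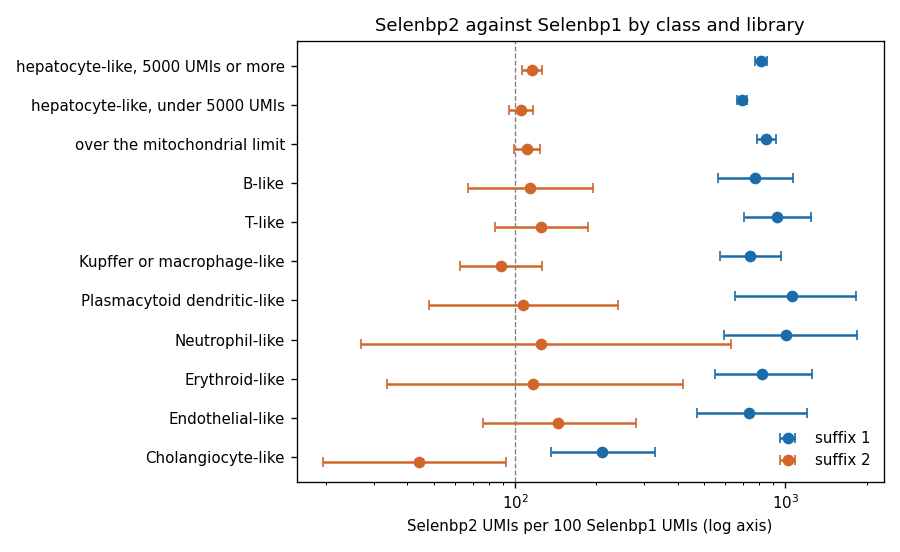
Selenbp2 UMIs per 100 Selenbp1 UMIs (log axis) by class and library, with 95% counting intervals; the dashed line marks equal numbers. Most classes sit near the value of their library, around 740 in suffix 1 and 111 in suffix 2. By their intervals, deep cells (810) and droplets over the mitochondrial limit (850) of suffix 1 lie above 740. Cells under 5000 UMIs (692) lie below it. Cholangiocyte-like cells sit lower in both libraries, at 209 and 44.0.

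In suffix 1 a group of barcodes rich in nuclear RNA went further. It was an unnamed cluster of 78 cells, in which Malat1, a transcript retained in the nucleus, reached 83899 CPM. Its best marker list was that of T cells (score 1.02), with hepatocytes next (0.799). It held 1562 Selenbp2 UMIs per 100 Selenbp1 UMIs (1183 to 2103), from 828 and 53 UMIs. Its Selenbp2 level was 1679 CPM and its Gpx1 level 515 CPM. Suffix 2 held a hepatocyte-like cluster of 156 cells with Malat1 at 49792 CPM. It gave 137 (106 to 178), an interval that holds the 111 of all hepatocyte-like cells of suffix 2. Selenbp2 stood at 175 CPM and Gpx1 at 665 CPM there. Whether both clusters hold the same kind of barcode was not tested. The gap between the libraries in Selenbp2 was thus also present among barcodes rich in a nuclear transcript, where the peroxidase transcripts were low in both.

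Selenbp1 and Selenbp2 are similar enough for reads to be shared, and this bounds what their levels can show. Their coding sequences were identical at 1401 of 1419 positions (98.7%), and the last 500 bases of the transcripts, where a 3′ library reads, at 95.5% of aligned positions. Of the 411 windows of 90 bases in that end, 95 of Selenbp1 and 88 of Selenbp2 occurred without a mismatch in the other gene. Most windows of this length could therefore be told apart between the paralogs. However, 90 bases is an assumed read length, and introns were not considered. The rest of the annotation was searched from spaced windows only. That search met no other gene but could have missed short shared runs. The sources used here do not say how reads that match both genes were treated. Whether misassigned reads change the smaller gene's level was not tested.

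The upstream regions of the paralogs were nearly as similar. In windows of 250 bases before and 50 after the RefSeq start, 87.2% of aligned positions were identical. A stretch of 100 bases that ends before the annotated starts is shown because it holds a difference in a motif of C/EBP factors. It is chr3:94932953-94933052 for Selenbp1 and chr3:94693453-94693552 for Selenbp2, on the plus strand of GRCm38.p6 from RefSeq, with the 4 bases that differ in capitals.
Selenbp1: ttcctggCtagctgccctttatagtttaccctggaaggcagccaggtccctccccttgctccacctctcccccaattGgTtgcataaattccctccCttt
Selenbp2: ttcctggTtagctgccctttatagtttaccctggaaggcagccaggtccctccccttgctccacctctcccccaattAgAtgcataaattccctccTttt
The 8-letter motif TTGCNNAA, searched on both strands after the values had been seen, occurred once in the Selenbp1 window, from 51 to 44 bases before the start, and 1 of its 8 bases differs in Selenbp2, whose window held no match. It occurred in no window of the other 5 genes and in 10.8% of all 32851 RefSeq windows. The other motif searched, GCAAT, occurred in neither paralog. It was found in the Gpx1 window, in 1 of 4 Gpx4 windows and in 1 of 3 Txnrd1 windows, and in 26.4% of all windows. These are matches of letters in short windows and say nothing of binding.

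Selenop, which hepatocytes make for export, varied with depth and with the library. In deep hepatocyte-like cells it stood at 5394 CPM in suffix 1 and 3709 CPM in suffix 2, 1.45-fold higher in suffix 1 (1.44 to 1.47), or 122 and 54.5 UMIs per cell. In cells under 5000 UMIs it stood at 2299 and 2385 CPM, a ratio of 0.964 (0.943 to 0.986). These shallow cells held 3.24 and 4.34 Selenop UMIs each, against 3.69 and 3.72 in B-like and T-like cells. Per 1000 Alb UMIs they held 74.0 and 67.8 against 71.3 and 63.5. Those intervals overlapped in suffix 1 and lay apart in suffix 2 (66.5 to 69.1 against 61.0 to 66.0). How much of the ratio of shallow cells comes from free RNA was not tested. The summed value of 1.24-fold includes the shallow cells. It turned to 0.970 with a mitochondrial limit of 10% and to 0.918 with the marker gate. As means over cells it was 1.01, and it was 1.58 after free RNA was subtracted. At a common 5000 UMIs the median deep cell held 26 Selenop UMIs in suffix 1 and 18 in suffix 2.

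Selenop was not confined to hepatocyte-like cells. Endothelial-like cells, which line the sinusoids, carried 4791 CPM in suffix 1 (3389 UMIs) and 3881 CPM in suffix 2 (2969 UMIs), or 22.4 and 16.7 UMIs per cell, against 3.69 and 3.72 in B-like and T-like cells. Per 1000 Alb UMIs this was 446 and 308, against 118 and 84.1 in hepatocyte-like cells and 71.3 and 63.5 in B-like and T-like cells. Kupffer or macrophage-like cells held 9.83 and 8.65 Selenop UMIs each, with 139 and 122 per 1000 Alb UMIs. Thinned to 1000 UMIs, 94.2% and 88.2% of endothelial-like cells held a Selenop UMI, and 53.1% of T-like cells did so in both libraries. Selenop transcripts of endothelial-like cells thus stood above the level of B-like and T-like cells in each library.

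**Figure D4:**
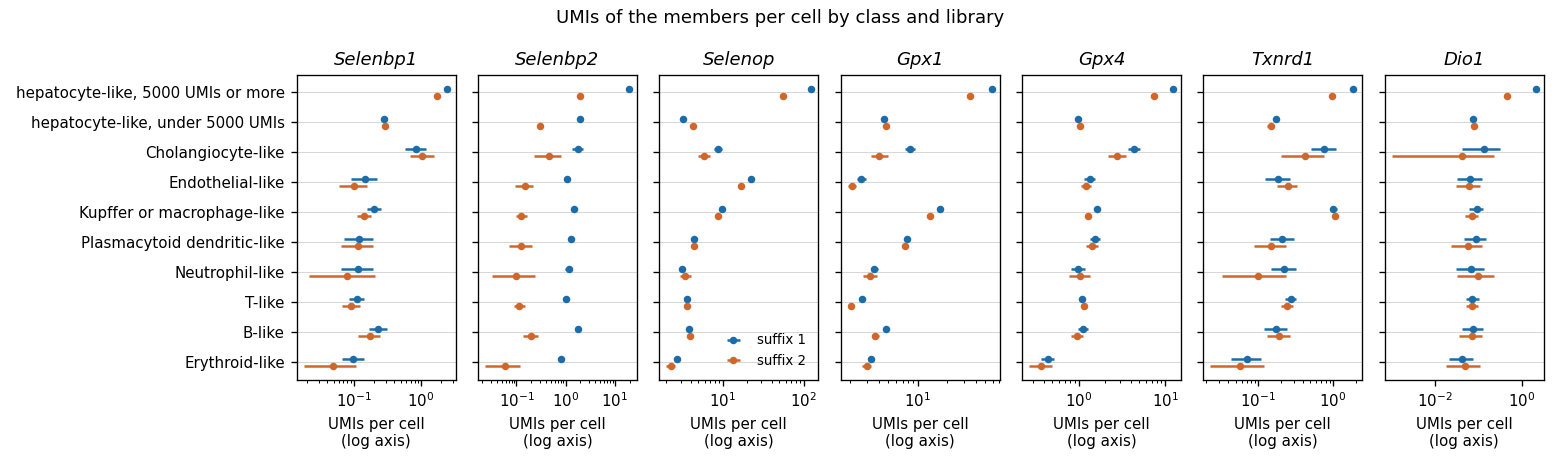
UMIs per cell (log axis) of each of the 7 genes by class and library, with 95% counting intervals. Against the level of B-like and T-like cells, Selenop stands out in endothelial-like cells (22.4 and 16.7 per cell). Gpx1 and Txnrd1 do so in Kupffer or macrophage-like cells (17.1 and 13.4, and 1.01 and 1.07). Selenbp1 (0.842 and 1.04) and Gpx4 (4.34 and 2.79) do so in cholangiocyte-like cells, where Txnrd1 stands at 0.763 and 0.417. All 7 do so in hepatocyte-like cells of at least 5000 UMIs. Counts per cell are not adjusted for depth, and cholangiocyte-like and Kupffer or macrophage-like cells were deeper than B-like and T-like cells.

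Gpx1 and Gpx4, the peroxidases, were close between the libraries. In hepatocyte-like cells Gpx1 was 1.16-fold (1.14 to 1.17) and Gpx4 1.16-fold (1.12 to 1.19) higher in suffix 1, and in deep cells the ratios were 1.09 (1.07 to 1.11) and 1.07 (1.03 to 1.11). Both intervals exclude equal levels, but they cover counting error only and the differences were small beside those of Selenbp2. At 5000 UMIs the median deep cell held 13 and 12 Gpx1 UMIs and 2 Gpx4 UMIs in either library.

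Gpx1 was also a transcript of Kupffer or macrophage-like cells, the resident phagocytes of liver. They held 17.1 Gpx1 UMIs each in suffix 1 and 13.4 in suffix 2, against 3.24 and 2.46 in B-like and T-like cells, at 1998 and 2011 CPM. Per 1000 Alb UMIs the values were 240 and 190, against 83.7 and 64.0 in hepatocyte-like cells. Plasmacytoid dendritic-like cells held 7.72 and 7.48 per cell. For Gpx4, cholangiocyte-like cells held 4.34 and 2.79 Gpx4 UMIs each, against 1.11 and 1.12 in B-like and T-like cells. Kupffer or macrophage-like cells held 1.62 and 1.28 but were deeper, with medians of 8361 and 6109 UMIs against 4353 and 4002, and by CPM they stood at 190 and 192 against 237 and 259 in B-like and T-like cells.

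Txnrd1 was found in several classes. Kupffer or macrophage-like cells stood at 118 CPM in suffix 1 (341 UMIs) and 161 CPM in suffix 2 (553 UMIs), against 101 and 71.2 CPM in hepatocyte-like cells. Hepatocyte-like cells under 5000 UMIs stood at 124 and 80.4 CPM, and deep ones held 1.87 and 0.974 UMIs each against 1.01 and 1.07 in Kupffer or macrophage-like cells. Thinned to 1000 UMIs, 11.4% and 7.1% of hepatocyte-like cells and 10.7% and 14.97% of Kupffer or macrophage-like cells held a Txnrd1 UMI, so which class was higher depended on the library and on the measure. Per 1000 Alb UMIs Kupffer or macrophage-like cells gave 14.2 and 15.2, plasma-like cells 14.7 and 8.73 from 26 and 22 UMIs, T-like cells 5.32 and 4.15, B-like cells 3.19 and 3.15 and hepatocyte-like cells 2.94 and 1.84. In hepatocyte-like cells the ratio of suffix 1 to suffix 2 was 1.41 (1.31 to 1.52), and in deep cells 1.25 (1.13 to 1.38). With a mitochondrial limit of 10% it was 2.25. Hepatocyte-like cells under 5000 UMIs held 0.175 and 0.146 Txnrd1 UMIs each, against 0.244 and 0.229 in B-like and T-like cells and 0.0707 and 0.0574 in erythroid-like cells.

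Dio1 was the other member past a 2-fold difference, and in deep cells it stood above the level of B-like and T-like cells. All hepatocyte-like cells gave 74.0 CPM in suffix 1 (2050 UMIs) and 35.1 CPM in suffix 2 (458 UMIs), a ratio of 2.11 (1.91 to 2.34). In deep cells it was 89.6 against 30.6 CPM, 2.93-fold (2.57 to 3.36), and 33.8% against 14.2% of cells held a Dio1 UMI at 5000 UMIs. In cells under 5000 UMIs it was 53.9 against 43.5 CPM, 1.24-fold (1.06 to 1.46), with 0.0759 and 0.0791 UMIs per cell, near the 0.0742 and 0.0725 of B-like and T-like cells. In these shallow cells Dio1 was thus not detectable above background. The ratio was also below 2 with a mitochondrial limit of 10% (1.56), with the marker gate (1.22) and as a mean over cells (1.41), and it was 3.65 after the mean profile of B-like and T-like cells was subtracted.

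Position along the liver lobule, from the portal vein to the central vein, gave small gradients. Deep cells of each library were ranked by pericentral against periportal genes and split into 3 groups of equal size, 229 cells each in suffix 1 and 193 in suffix 2. Cyp2e1, a pericentral gene, stood at 192, 239 and 521 CPM from the periportal to the pericentral group in suffix 1 and at 168, 259 and 595 CPM in suffix 2, and since it is among the genes that set the rank, this only shows that the ranking worked. The median depth of these groups was 21953, 27473 and 15742 UMIs in suffix 1 and 13112, 12883 and 11047 UMIs in suffix 2, lowest on the pericentral side in both, and its part in the gradients was not tested. Selenop was lower on the pericentral side, with 5895, 5671 and 4485 CPM in suffix 1 and 3965, 3800 and 3332 CPM in suffix 2. Gpx1 gave a smaller gradient of the same direction, with 2868, 2548 and 2394 CPM and with 2490, 2430 and 2259 CPM. Gpx4 was highest on the pericentral side, at 624 CPM against 523 on the periportal side in suffix 1 and at 543 against 461 CPM in suffix 2. Txnrd1 stood at 79.8, 76.2 and 94.0 CPM and at 58.0, 70.2 and 71.1 CPM. The intervals of its end groups overlapped in both libraries. Selenop, Gpx1 and Gpx4 thus had the same order of the end groups in both libraries.

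The paralogs had no shared gradient. Selenbp1 stood at 106, 102 and 117 CPM from the periportal to the pericentral group in suffix 1 and at 129, 101 and 120 CPM in suffix 2. Selenbp2 stood at 990, 806 and 829 CPM in suffix 1 and at 131, 139 and 136 CPM in suffix 2, where the intervals overlapped. Selenbp2 per 100 Selenbp1 UMIs was 935, 787 and 712 in suffix 1 and 101, 137 and 113 in suffix 2. Dio1 gave 95.6, 90.7 and 81.6 CPM and 28.8, 33.4 and 29.4 CPM. Every group of suffix 1 stood above every group of suffix 2 in Selenbp2 and in Dio1. As many as 139 and 124 cells lay within 0.1 SD of a group limit, so the groups are ranges along the lobule and not kinds of cell.

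The selenoprotein genes were also counted as a list. Of the 24 selenoprotein genes listed, 16 reached 10 CPM in hepatocyte-like cells of either library, 1 of them (Dio1) was at least 2-fold higher in suffix 1 and 0 in suffix 2. Over all genes these shares were 1.78% and 2.51%, so counts of 1 and 0 among 16 show nothing particular to the list. Selenoi, an enzyme of phospholipid synthesis, came closest in the other direction with 11.2 and 22.2 CPM. The median log2 ratio of the 16 was -0.06. The highest beside the members were Sephs2, which makes the selenium donor (515 and 470 CPM), Msrb1, a methionine sulfoxide reductase (482 and 562 CPM), and Selenow (200 and 163 CPM). Dio2, Dio3 and Selenov had 0 UMIs in hepatocyte-like cells of both libraries, and a count of 0 allows up to 3.

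Genes that build selenocysteine or receive selenoprotein P are few, and at the 4.28% of all genes that were 2-fold apart a count of 0 among them is near the background. All 10 genes of selenocysteine synthesis and insertion reached 10 CPM and 0 of them were 2-fold apart, with Scly, the selenocysteine lyase, at 41.7 and 36.4 CPM and Secisbp2, which binds the hairpin, at 15.2 and 13.5 CPM. Of 3 receptors of selenoprotein P, Lrp1 stood at 113 and 114 CPM, and Lrp8 and Lrp2 had at most 5 UMIs in a library. Of 17 partner genes of the thioredoxin, glutathione and Nrf2 systems, 16 reached 10 CPM, and only Gclc, the catalytic subunit of glutathione synthesis, was 2-fold apart, with 97.5 CPM in suffix 1 and 203 CPM in suffix 2. Its partner Gclm stood at 292 and 267 CPM. The list's median log2 ratio was 0.16.

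Taking the 24 genes together, selenoprotein transcripts made up 9419 CPM of hepatocyte-like cells in suffix 1 and 8156 CPM in suffix 2, more than in any other named class. Selenop and Gpx1 gave 42.9% and 30.4% of these UMIs in suffix 1 and 39.8% and 30.3% in suffix 2. The make-up of other classes, free RNA included, differed from this in both libraries. In endothelial-like cells Selenop gave 71.8% and 67.9%, in Kupffer or macrophage-like cells Gpx1 gave 43.7% and 42.6%, in neutrophil-like cells Msrb1 came first, and in plasma-like cells Selenok, a protein of the endoplasmic reticulum.

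**Figure D5:**
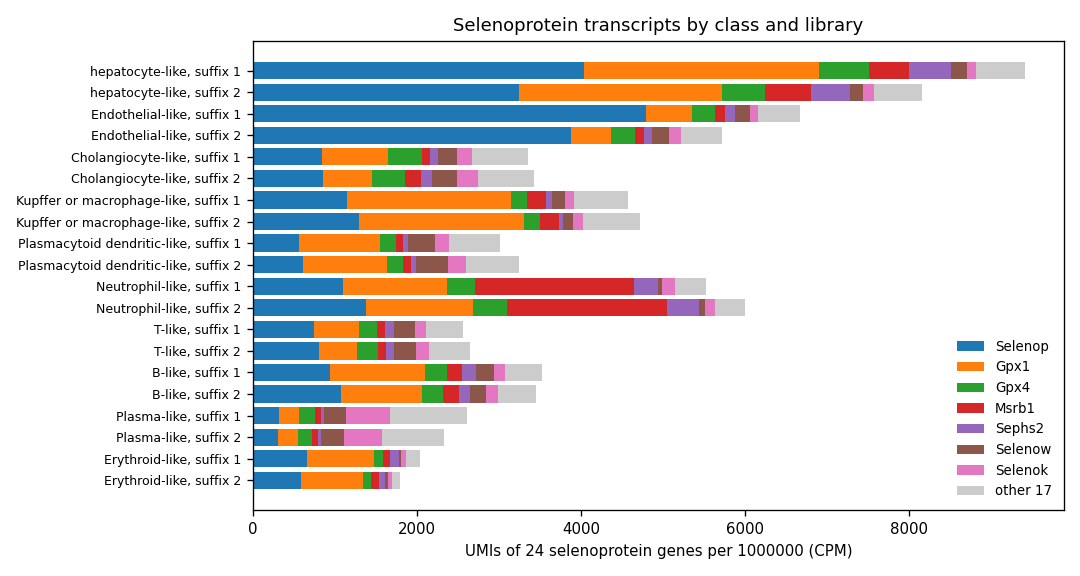
Summed UMIs of 24 selenoprotein genes per 1000000 UMIs (horizontal bars, from 0) by class and library, split into the 7 most prominent genes and the other 17. Hepatocyte-like cells reach 9419 and 8156 CPM, mostly Selenop and Gpx1, endothelial-like cells are dominated by Selenop and neutrophil-like cells by Msrb1.

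The genes most like each paralog were not the same. Over 22 points, 11 classes in each of 2 libraries, the log levels of 7963 genes were correlated with each paralog as a description, and the points share the libraries and their free RNA. Among the genes most like Selenbp1 were Echdc2 (Pearson's r 0.970), Dbi (0.954), Hpn (0.943) and Decr1 (0.940), whose hepatocyte-like levels differed between the libraries by at most the 1.19-fold of Decr1. Selenbp2 was most like Tff3 (0.961), Cyp7b1 (0.950), Phlda1 (0.917), Eif4ebp3 (0.915) and Mt1 (0.894). Since the points cover both libraries and Selenbp2 differed between them, this choice favours genes that stand higher in suffix 1. These 5 did so. Cyp7b1, an oxysterol hydroxylase of bile acid synthesis, stood at 625 against 107 CPM and Mt1, a metallothionein, at 1199 against 253 CPM. Selenbp1 and Selenbp2 were correlated at 0.524.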

How the data were processed

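The authors made the deposited counts, whole-number UMI counts per gene and barcode in 1 joined matrix, with Cell Ranger 7.1.0 on mm10; bcl2fastq 2.20.0 and STAR 2.7.2a are also named in the submitters' processing notes. The sources used here do not say how reads matching more than 1 gene were treated. Members and lists were chosen with earlier results of these data known.

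Cells of at least 500 UMIs, at least 200 genes and at most 25% mitochondrial UMIs were kept. Log counts per 10000 UMIs of 2000 variable genes, without the members and selenium lists, were reduced to 30 components. Leiden clustering on 15 nearest neighbours (resolution 1, igraph 0.11.9) gave 40 clusters, of which 32 were named from 16 marker lists by the mean log2 ratio of their markers. The next list had to score at most 0.75 of the best. After the clusters were seen, the haemoglobin list was left out of that last rule, since its RNA was present throughout, and this raised hepatocyte-like cells from 8038 to 12371. No doublet caller was run, and doublets remain.

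UMIs were summed per class and library. Intervals are exact Poisson for CPM, Clopper-Pearson for shares and derived from the latter for ratios. They are at 95% and cover counting error only. Classes of at least 20 cells are shown. A gene counted as apart at a 2-fold ratio of CPM, with at least 10 CPM in either library. With 1 library per suffix and no genotype tied to it, no test was made and p-values are absent. Named genes are the members, the listed pathway genes and, for each paralog, the 5 genes of at least 50 CPM with the highest correlation, of which 1 is not reported here; genes and clusters outside that rule (Malat1, Cyp2e1) were named after their values were seen. The calculations were tested on simulated data. Sequences came from GENCODE M21 and RefSeq tables on GRCm38, and Biopython 1.88, scipy 1.17.1 and numpy 2.4.6 were used. The effect of the alternatives is given in the closing section.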

Additional observations from a re-analysis of the deposited data

Results flagged for a closer look

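Droplets over the mitochondrial limit, which were left out of the reported comparisons and entered in part only with the limit of 50%, also carried the paralogs. They held 850 Selenbp2 UMIs per 100 Selenbp1 UMIs in suffix 1 (784 to 922) and 111 in suffix 2 (99.0 to 124), and were singled out because a signal appeared in data left aside, above the 3 UMIs that a count of 0 allows. The libraries lost 32.8% and 59.4% of their barcodes to this limit.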

How the results depend on the processing

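No paired analysis was possible because each suffix is 1 library and nothing was tested between them. Over 12 alternatives, Selenbp2 per 100 Selenbp1 UMIs in hepatocyte-like cells stayed between 108 and 115 in suffix 2, within its counting interval. In suffix 1 it left its interval in 8 of 12, with 696 with a mitochondrial limit of 10%, 812 with one of 50%, 786 with a minimum of 1000 UMIs, 709 with a marker gate per cell, 810.0 in cells of at least 5000 UMIs, 713 as means over cells, 684 after free RNA was subtracted and 783 with the haemoglobin list kept in the naming, against 740 as reported. The lowest value of suffix 1 stood above the highest of suffix 2 in these alternatives. The haemoglobin alternative was added after the data were seen, as the naming it replaces was set then.

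The count of members at least 2-fold apart was 2 in 10 alternatives and 1 with the marker gate and as means over cells, where Selenbp2 alone was past the mark and the ratio of Dio1 was 1.22 and 1.41. With a mitochondrial limit of 10% the 2 members were not the same, as Dio1 gave 1.56 and Txnrd1 2.25. The ratio of suffix 1 to suffix 2 turned for Selenop to 0.970 with a mitochondrial limit of 10% and to 0.918 with the marker gate, and for Selenbp1 to 0.921 in cells of at least 5000 UMIs. The cause was not tested.

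Of 168 values of member CPM over the alternatives, 35 lay within the counting interval of the reported value and 133 outside it. They are given as CPM for suffix 1 and suffix 2 in turn. With a mitochondrial limit of 10%, they were 189.8 and 153 for Selenbp1, 1322 and 166 for Selenbp2, 2548 and 2628 for Selenop, 3014 and 2353 for Gpx1, 656 and 563 for Gpx4, 114 and 50.6 for Txnrd1 and 60.1 and 38.4 for Dio1. With a limit of 50%, they were 105 and 101 for Selenbp1, 851 and 112 for Selenbp2, 4338 and 2853 for Selenop, 2251 and 1911 for Gpx1, 449 and 405 for Gpx4, 75.6 and 55.5 for Txnrd1 and 75.8 and 36.6 for Dio1. With a minimum of 1000 UMIs per cell, they were 120.4 and 111 for Selenbp1, 946 and 125 for Selenbp2, 4834 and 3637 for Selenop, 2657 and 2223 for Gpx1, 531 and 471 for Gpx4, 88.2 and 59.8 for Txnrd1 and 83.5 and 34.7 for Dio1. At a clustering resolution of 2, they were 134 and 114 for Selenbp1, 1016 and 127 for Selenbp2, 4495 and 3494 for Selenop, 2749 and 2269 for Gpx1, 558 and 484 for Gpx4, 93.2 and 64 for Txnrd1 and 79.1 and 35.8 for Dio1. With the members allowed among the variable genes, they were 126 and 110.5 for Selenbp1, 954 and 119 for Selenbp2, 4553 and 3804 for Selenop, 2617 and 2357 for Gpx1, 551 and 504 for Gpx4, 86.8 and 60.8 for Txnrd1 and 81.2 and 36.1 for Dio1. With the marker gate per cell, they were 182 and 139 for Selenbp1, 1290.5 and 151 for Selenbp2, 2628 and 2863 for Selenop, 2935 and 2507 for Gpx1, 641 and 542 for Gpx4, 109 and 65.6 for Txnrd1 and 58.4 and 47.7 for Dio1. In cells of at least 5000 UMIs, they were 108 and 117 for Selenbp1, 872 and 135 for Selenbp2, 5394 and 3709 for Selenop, 2605 and 2397 for Gpx1, 540.2 and 504 for Gpx4, 82.6 and 66.3 for Txnrd1 and 89.6 and 30.6 for Dio1. As means over cells, they were 179 and 149 for Selenbp1, 1274 and 162 for Selenbp2, 2668 and 2632 for Selenop, 2968 and 2588 for Gpx1, 641 and 564 for Gpx4, 113 and 80.9 for Txnrd1 and 59.4 and 42 for Dio1. After subtraction of the mean profile of B-like and T-like cells, they were 289 and 227 for Selenbp1, 1972 and 247 for Selenbp2, 8054 and 5095 for Selenop, 5114 and 4074 for Gpx1, 687 and 568 for Gpx4, 54.6 and 37 for Txnrd1 and 141 and 38.6 for Dio1. With the haemoglobin list kept in the naming, they were 115 and 111 for Selenbp1, 899 and 124 for Selenbp2, 4805 and 3624 for Selenop, 2535 and 2220.5 for Gpx1, 532 and 473 for Gpx4, 83.5 and 59.7 for Txnrd1 and 84.9 and 34.4 for Dio1. At a resolution of 0.5 Gpx1 of suffix 2 stood at 2446 CPM. Levels per 1000 Alb UMIs, thinned shares and lobule groups were computed with the reported settings only. Depth limits cells under 5000 UMIs, where a cell held on average less than 1 UMI of Selenbp1, Txnrd1 and Dio1 in both libraries, of Selenbp2 in suffix 2 and of Gpx4 in suffix 1.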
